A study of Mus musculus with 6 samples.

Results

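A set of 40 genes of Wnt signaling and of the cortical hem was followed in RNA sequencing counts of fetal mouse cortex. The genes were given by symbol and each matched 1 row of a table with 45583 rows. They comprise 7 ligands grouped here as ligands of the hem, with the hem transcription factor Lmx1a. The rest are 6 other Wnt ligands, 10 receptors, 11 intracellular parts of the pathway and 5 antagonists. The counts come from bulk tissue and do not show where in it a gene was expressed. Of these 40 genes, 39 passed the filter on low counts, and Fzd10, with 4 to 16 counts in a library, did not.

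The cortex came from 6 male fetuses taken at GD15.5 (gestational day). Their dams, of the strain Cyp19-EGFP, had been injected under the skin from GD10.5 to GD14.5 with bisphenol A (BPA, a plastic monomer with estrogen-like activity) at 50 µg/kg or with peanut oil as vehicle. There were 3 fetuses in a group, each sequenced as a library of its own. All fetuses were labeled WT and SRY positive, so neither group is labeled as carrying the strain's transgene, which places a green fluorescent protein under the aromatase gene Cyp19a1. The dam or litter of each fetus is not given in the labels, so p-values measure the spread between these fetuses, and effects of litter and of treatment cannot be told apart.

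Wnt proteins are secreted signals that bind a Frizzled receptor together with an Lrp5 or Lrp6 coreceptor. This stops a complex built on Axin and Apc from marking beta-catenin for destruction, and the beta-catenin that builds up enters the nucleus and switches on targets with factors of the Tcf and Lef family. R-spondins strengthen the signal by removing the ubiquitin ligases that clear Frizzled receptors from the cell surface. The cortical hem is a strip at the medial edge of the cortical primordium, next to the choroid plexus, that secretes several Wnt proteins, is needed for the hippocampus to form and gives rise to many Cajal-Retzius cells, the early reelin neurons of the cortical surface.

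Total counts were between 5030652 and 7180835 in the vehicle libraries and between 3444601 and 6426857 in the BPA libraries. Levels are given in CPM, counts scaled to a common library size with the TMM correction for composition, and a count of 0 allowed up to 0.422 to 0.875 CPM per library, counting error alone. The tissue label held in all libraries, where 12 markers of the dorsal pallium summed to between 4041 and 4767 CPM. Libraries differed in markers of tissue that borders the cortex. Ttr, a choroid plexus gene, was at 195 CPM in vehicle 2 and 308 CPM in BPA 2, against 2.21 to 11.9 CPM in the other 4 libraries. Meningeal genes summed to 223 CPM in vehicle 3 and 190 CPM in BPA 2, against 80.6 to 114 CPM in the others. The 12 markers of the ventral telencephalon all had a lower fitted level in BPA. Groups did not overlap for 9 of them, against 3.56% of all genes tested in that direction, 6 had an unadjusted edgeR p under 0.05 and 0 passed an adjusted p of 0.1. In bulk tissue, fewer cells of a type and less RNA per cell cannot be told apart.

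Promoter sequences of 4 hem genes are printed to show that genes grouped by their place of expression stood on promoters of unlike base composition. Each is the RefSeq window (GRCm38.p6) from 250 bases before to 50 bases after the start of transcription, read 5′ to 3′ on the gene's strand, with every CG dinucleotide in capitals. Lmx1a lies on the plus strand at chr1:167689308-167689607, Rspo1 on the plus strand at chr4:124986180-124986479, Wnt3a on the minus strand at chr11:59290702-59291001 and Wnt8b on the plus strand at chr19:44493222-44493521. The Lmx1a window surrounds an internal start. It lies wholly within the gene as annotated in GENCODE, which begins at 167689237, and holds no bases from before that position.
Lmx1a: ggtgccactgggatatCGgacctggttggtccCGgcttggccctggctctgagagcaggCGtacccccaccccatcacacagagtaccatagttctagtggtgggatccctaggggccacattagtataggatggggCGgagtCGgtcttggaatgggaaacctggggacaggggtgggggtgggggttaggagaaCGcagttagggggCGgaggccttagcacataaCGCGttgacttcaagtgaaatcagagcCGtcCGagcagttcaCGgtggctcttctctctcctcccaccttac
Rspo1: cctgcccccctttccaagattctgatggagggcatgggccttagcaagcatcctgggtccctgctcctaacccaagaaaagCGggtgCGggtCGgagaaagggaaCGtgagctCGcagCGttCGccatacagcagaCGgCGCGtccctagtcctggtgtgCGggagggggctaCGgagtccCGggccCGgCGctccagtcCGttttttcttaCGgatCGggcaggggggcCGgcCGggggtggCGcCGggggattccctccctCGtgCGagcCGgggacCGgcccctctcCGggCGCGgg
Wnt3a: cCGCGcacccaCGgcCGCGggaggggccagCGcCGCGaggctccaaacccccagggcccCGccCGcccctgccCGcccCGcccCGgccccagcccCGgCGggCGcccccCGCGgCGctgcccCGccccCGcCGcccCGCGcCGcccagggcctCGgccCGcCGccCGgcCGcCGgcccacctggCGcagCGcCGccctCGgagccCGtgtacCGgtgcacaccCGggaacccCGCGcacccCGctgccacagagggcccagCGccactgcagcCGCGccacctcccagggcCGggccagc
Wnt8b: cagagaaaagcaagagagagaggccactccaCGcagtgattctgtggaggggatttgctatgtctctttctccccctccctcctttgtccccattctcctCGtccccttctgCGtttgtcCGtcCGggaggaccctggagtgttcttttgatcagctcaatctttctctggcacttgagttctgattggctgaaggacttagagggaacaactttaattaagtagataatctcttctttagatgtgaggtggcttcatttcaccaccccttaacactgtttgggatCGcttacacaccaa

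The Wnt8b window held 6 CG dinucleotides and the Lmx1a window 12, whereas the Rspo1 window held 29 and the Wnt3a window 45. The window of Wnt2b, a hem gene not printed here, held 43, and none was found for Wnt5a, Rspo2 and Rspo3. The median was 29 over the 33 windows found for 26 of the 40 genes and 21 over the windows of all tested genes. GC content had a median of 69.0% in the windows of the set and 61.3% in those of all tested genes. The letters CTTTGAT and CTTTGAA, which many Tcf and Lef factors bind, were searched on both strands. They occurred in 1 of the 33 windows (3.03%), at an internal start of Wnt5b, and in 8.65% of all 32851 windows, those of untested genes included. Counted by gene, 1 of the 26 had a match, against 6.78% of the tested genes with a window. The part of GC content in this was not tested. A match is a run of letters and not a shown binding site.

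Expressed per kilobase of combined exon length, so that genes can be compared, levels spread over the range from Ctnnb1 to Fzd10. Ctnnb1, which encodes beta-catenin, averaged 219 CPM per kilobase, the highest level in the set. In the complex that destroys it, Gsk3b, the kinase that marks beta-catenin, was at 56.0 and the scaffold Apc at 42.9 CPM per kilobase. Among the ligands, Wnt7b stood at 58.3 and Wnt7a at 17.3 CPM per kilobase. These 2 ligands together made up 88.8% of the summed per-length level of the 10 Wnt ligands in the set (87.4% to 90.4% over the libraries), and Wnt7b alone 68.5%. Wnt5a, a ligand known for signaling without beta-catenin, contributed 3.91%, and Wnt3a, a classical activator of beta-catenin made in the hem, 0.552%.

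**Figure D1:**
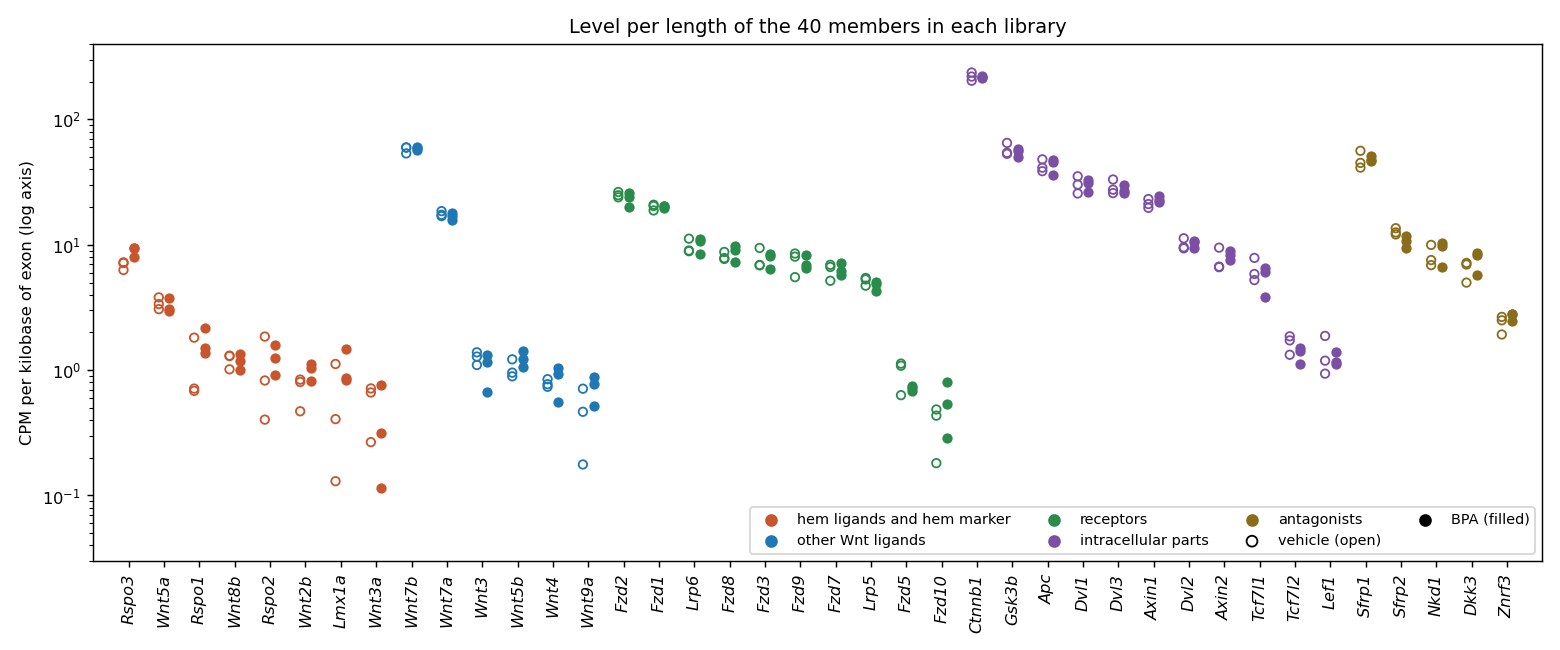
CPM per kilobase of exon (log axis) of the 40 genes, 1 point per library, grouped by role and ordered by mean level, with vehicle open and BPA filled. Ctnnb1 is highest at a mean of 219, Wnt7b and Wnt7a stand above the other ligands, and the wide spreads belong to genes at low levels such as Lmx1a, Wnt3a and Fzd10.

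The receptors formed a narrower band per length. Fzd2 averaged 24.2 and Fzd1 20.2 CPM per kilobase, Lrp6 9.91, Fzd8 8.38, Fzd3 7.68, Fzd9 7.29 and Fzd7 6.28. The coreceptor Lrp5 was at 4.94 CPM per kilobase, and Fzd5 and Fzd10 were lowest at 0.832 and 0.455. Across libraries, the ranges of neighbors in this order overlapped except between Fzd1 and Lrp6 and between Lrp5 and Fzd5, so the order is resolved at those 2 steps only. Sfrp1, a secreted protein that binds Wnt ligands, was the highest antagonist at 47.9 CPM per kilobase.

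The hem genes were taken library by library before any comparison. Wnt8b, whose expression marks the hem and the medial wall, lies on chromosome 19 from 44493472 to 44514273 (GRCm38). Its level was 3.53, 4.50 and 4.54 CPM in vehicle and 3.45, 4.71 and 4.08 CPM in BPA. The groups covered nearly the same range. Wnt2b, a ligand of the hem on chromosome 3 from 104945272 to 104961921, was at 3.53, 3.38 and 1.97 CPM in vehicle and 4.71, 3.41 and 4.38 CPM in BPA, with vehicle 3 the lowest of all. Wnt5a, on chromosome 14 from 28504750 to 28527448, was at 24.0, 26.3 and 29.8 CPM in vehicle and 23.9, 23.1 and 29.5 CPM in BPA, and the groups overlapped over most of their range.

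Wnt3a, the ligand on which growth of the hippocampal primordium depends, lies on chromosome 11 from 59248033 to 59290752 and was counted 5, 13 and 10 times in vehicle and 2, 13 and 3 times in BPA. These are 0.735, 1.83 and 1.97 CPM in vehicle and 0.314, 2.11 and 0.875 CPM in BPA. The highest and the lowest library were both BPA libraries, and at such counts sampling alone is wide. Its neighbor Wnt9a starts 16175 bases away on the opposite strand and was at 0.588, 1.55 and 2.37 CPM in vehicle and 1.73, 2.60 and 2.92 CPM in BPA.

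Lmx1a, a transcription factor of the hem and of the roof plate that forms choroid plexus, lies on chromosome 1 from 167689237 to 167848741. It was counted 3, 27 and 7 times in vehicle, or 0.441, 3.80 and 1.38 CPM, and 18, 31 and 10 times in BPA, or 2.83, 5.04 and 2.92 CPM. Vehicle 2 and BPA 2, the libraries highest in Ttr, were also the highest of their group in Lmx1a, and the vehicle 2 level exceeded those of BPA 1 and BPA 3. Rspo1, an R-spondin on chromosome 4 from 124986430 to 125009099, showed the same order. Its level was 1.32, 3.52 and 1.38 CPM in vehicle and 2.67, 4.23 and 2.92 CPM in BPA. Fzd10, a Frizzled receptor on chromosome 5 from 128600844 to 128604093 that was too low to test, was at 0.588, 1.41 and 1.58 CPM in vehicle and 0.942, 2.60 and 1.75 CPM in BPA.

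Rspo2 varied in another way. On chromosome 15 from 43020794 to 43170826, it was at 2.06, 4.22 and 9.47 CPM in vehicle and 4.71, 8.13 and 6.42 CPM in BPA. The highest library of each group, vehicle 3 and BPA 2, was also the highest of its group in the meningeal sum. The whole order was the same in vehicle but not in BPA. There BPA 3 had a lower meningeal sum than BPA 1, 88.1 against 104 CPM, but more Rspo2. The part of meningeal tissue in these values was not tested. Rspo3 was the steadiest of the 3 R-spondins. It lies on chromosome 10 from 29452416 to 29535867 and was at 22.4, 19.4 and 22.1 CPM in vehicle and 29.2, 28.9 and 24.5 CPM in BPA. All BPA libraries stood above all vehicle libraries, and vehicle 2, high in Ttr, was the lowest of all.

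**Figure D2:**
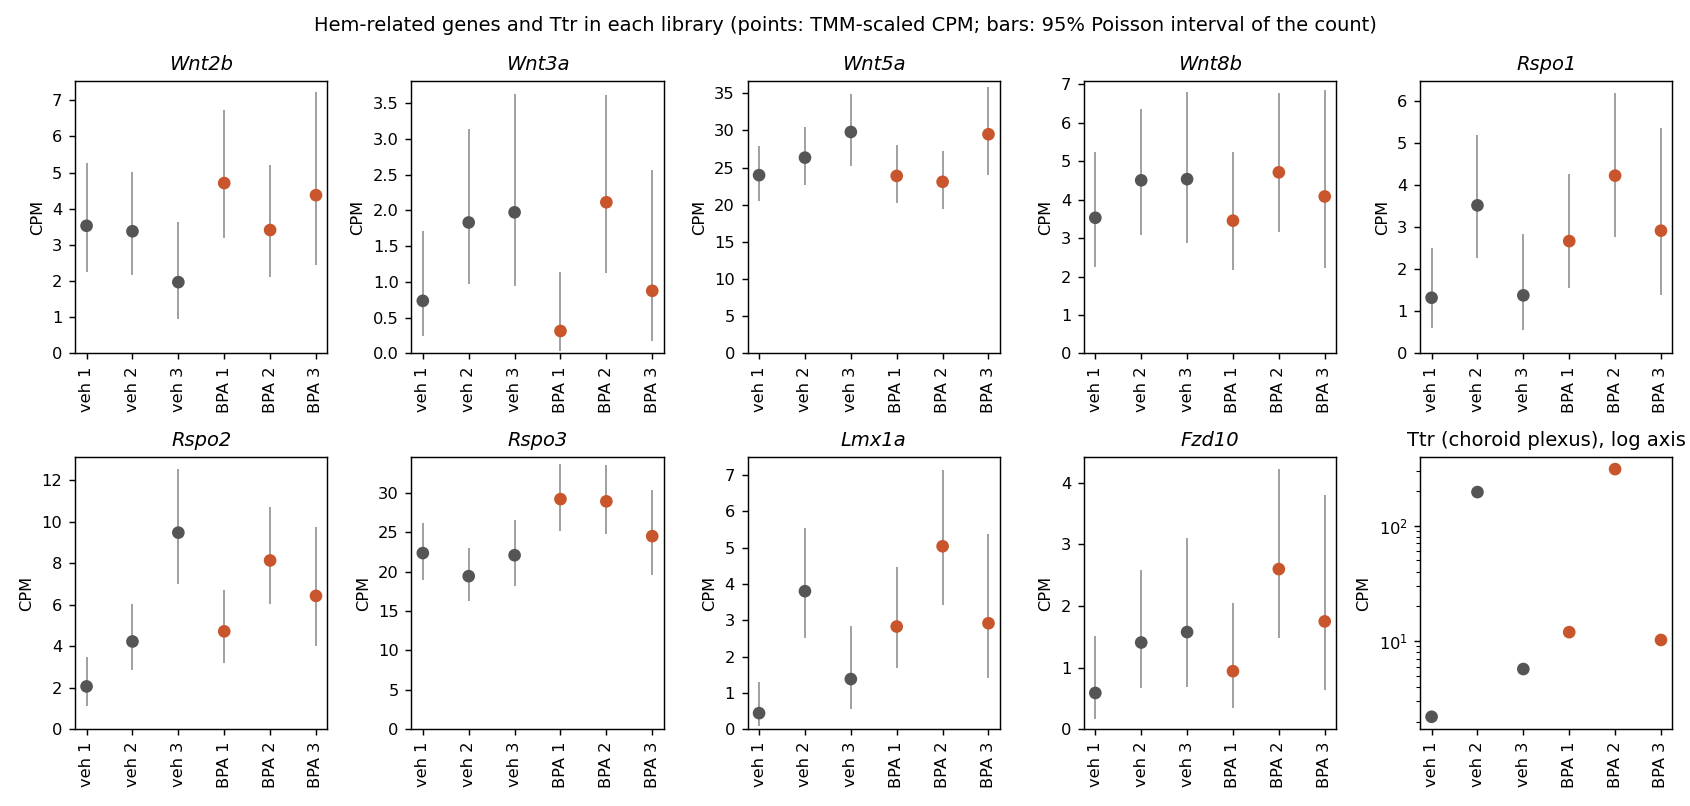
Level in CPM of 8 hem genes, Fzd10 and Ttr in each library (vehicle gray, BPA orange), with bars for the 95% Poisson interval of the count, which covers counting error only. Lmx1a and Rspo1 are highest in vehicle 2 and BPA 2, the libraries with Ttr at 195 and 308 CPM, and Rspo3 is the gene of these 9 in which every BPA library lies above every vehicle library.

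The spread between libraries of a group was measured as the biological coefficient of variation (BCV), the part of the relative spread that counting error does not account for, as edgeR estimated it for each gene. Lmx1a had a BCV of 0.333 where the trend for genes at its level was 0.170, and 0.320% of tested genes had as high a ratio to the trend. For Rspo2 the BCV was 0.295 against a trend of 0.153, a ratio reached by 0.386% of genes. Wnt3a had 0.261 against 0.177 and Rspo1 0.224 against 0.171, ratios reached by 1.89% and 4.78% of genes. The other hem genes were not spread in this way, with Wnt8b at 0.128 against 0.161, Wnt2b at 0.148 against 0.167, Wnt5a at 0.103 against 0.109 and Rspo3 at 0.0952 against 0.110. Over the set, 19 of 39 genes lay above the trend, compared with 35.2% of all genes tested.

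With the log2 level of Ttr as a covariate in the model, the BCV of Lmx1a was 0.163 with a trend of 0.153, that of Rspo1 was 0.135 with a trend of 0.153, and that of Lef1, a nuclear partner of beta-catenin, was 0.108 with a trend of 0.115. Lef1 had a BCV of 0.172 against a trend of 0.132 without the covariate, and was highest of its group in vehicle 2 at 16.5 CPM and in BPA 2 at 12.4 CPM, with the lowest libraries at 8.24 CPM in vehicle and 9.92 CPM in BPA. Rspo2 and Wnt3a remained above the trend, Rspo2 at 0.263 against 0.136 and Wnt3a at 0.187 against 0.161. A smaller BCV with the covariate was common in the set, and the trend was lower too, so it does not mark genes that follow Ttr. Wnt7b, highest of its group in vehicle 2 and lowest in BPA 2, went from 0.0843 to 0.0753. Wnt5b rose from 0.129 to 0.132. The BCV was also smaller with the covariate for Apc and Lrp6, which were lowest of their group in vehicle 2 and BPA 2. Apc went from 0.105 (trend 0.0948) to 0.0770 (trend 0.0795) and Lrp6 from 0.110 (trend 0.0987) to 0.0805 (trend 0.0796). Since Ttr was high in vehicle 2 and BPA 2, the covariate cannot tell choroid plexus from any other difference of those libraries. Over the set, 21 of 39 genes lay above the trend with the covariate, and 19 without it. The share of all tested genes above the trend was not computed for the covariate fit, so the count of 21 cannot be read against it. These covariate fits were run on 6 libraries with 3 coefficients, and the part of choroid plexus tissue in these values was not tested.

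**Figure D3:**
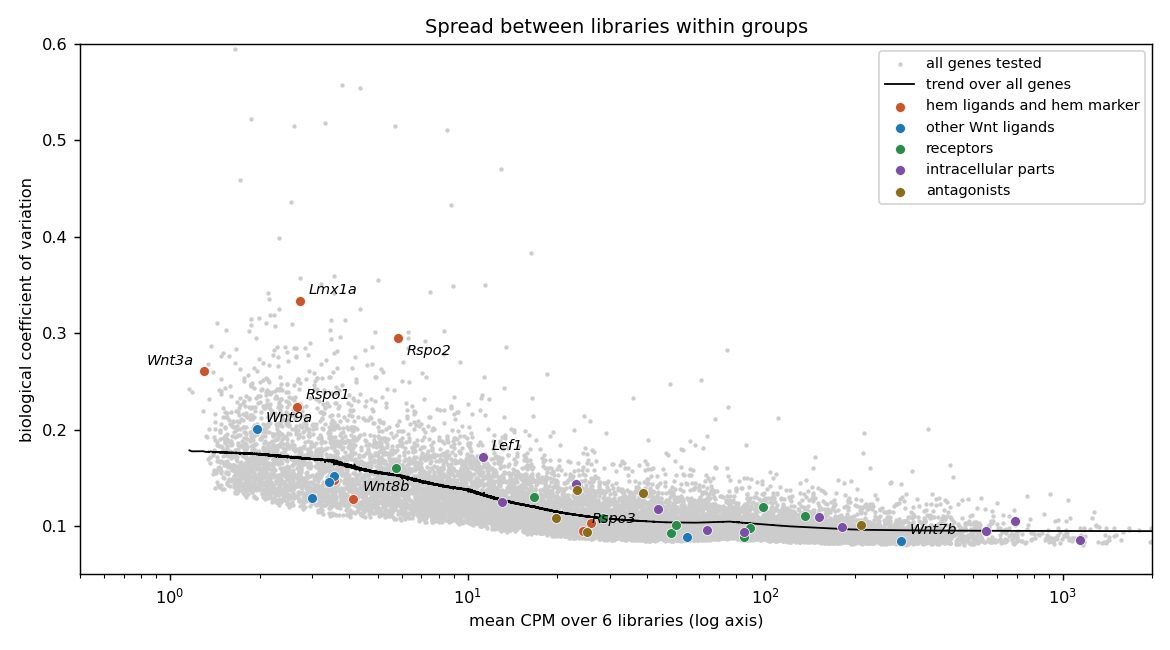
Biological coefficient of variation within groups against mean CPM over the 6 libraries (log axis) for the genes of the set, colored by role, over all genes tested in gray and their trend in black; 15 genes outside the axes are not drawn. Lmx1a at 0.333, Rspo2 at 0.295, Wnt3a at 0.261 and Rspo1 at 0.224 lie above the trend, and Rspo3 and Wnt8b lie below it.

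BPA was then compared with vehicle to ask whether prenatal exposure was accompanied by a difference in Wnt and hem genes. In edgeR's quasi-likelihood test over 13741 genes, 0 of the 39 tested genes of the set passed an adjusted p of 0.1, as did 0% of all genes. At an unadjusted p under 0.05, 1 gene of the set passed, against 2.20% of all genes, and it was higher in BPA, as were 1.02% of all genes at that threshold. In the set, 21 genes had a higher and 18 a lower fitted level in BPA (median log2 fold change 0.016), and over all genes 6942 were higher and 6799 lower (median 0.0016). Groups did not overlap for 2 of the 39 genes, against 6.75% of all genes. Rspo3 was the 1 gene with every BPA library higher (3.19% of all genes) and Sfrp2 the 1 gene with every BPA library lower (3.56%), so the counts in the set were near those of the whole table.

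The gene with an unadjusted p under 0.05 was Rspo3. Its level was 21.3 ± 1.62 CPM in vehicle and 27.5 ± 2.64 CPM in BPA (SD, n = 3 each). The log2 fold change was 0.39 (SE 0.138), and the 95% interval of the fold ran from 1.07 to 1.60. The edgeR quasi-likelihood p was 0.0130 before adjustment and 0.9998 after Benjamini-Hochberg adjustment over all genes, so the difference did not pass. An annotated antisense gene overlaps 13.1% of the Rspo3 exon length, and whether counting used strand is not stated.

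Lmx1a had the largest fitted difference in the set, a log2 fold change of 0.92 (SE 0.498), but its 95% interval from -0.14 to 1.98 included 0. Without vehicle 2 the log2 fold change was 2.08, with an edgeR p of 0.00108 before and 0.830 after adjustment. That fit kept BPA 2, the other library high in Ttr. Without both libraries the log2 fold change was 1.73, with an edgeR p of 0.00367 before and 0.459 after adjustment. With the Ttr covariate it was 0.71 (SE 0.367). The log2 fold change of Lmx1a was 0.42 without vehicle 1 and 0.56 without BPA 2. Other low hem genes also moved by over 1.5 times with 1 library left out. Rspo1 was at 0.63 (SE 0.394) with all libraries, 1.28 without vehicle 2, 0.36 without vehicle 1 and 0.37 without BPA 2. It was at 1.03 (SE 0.472) without the 2 libraries highest in Ttr and at 0.45 (SE 0.334) with the Ttr covariate. Wnt3a was at -0.39 (SE 0.571) with all libraries, -1.49 without BPA 2 and 0.13 without BPA 1. Rspo3 ran from 0.32 to 0.45 when each library was left out in turn, and was at 0.30 without the 2 libraries highest in Ttr, with an edgeR p of 0.0978 before and 0.801 after adjustment.

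Of the 8 hem genes, 5 had a higher and 3 a lower fitted level in BPA, and the median log2 fold change was 0.37. The median was 0.16 without vehicle 1 and 0.23 without BPA 2. Wnt2b was at 0.45 (SE 0.303) and Rspo2 at 0.35 (SE 0.397), and both intervals included 0. Rspo2 was at 1.01 without vehicle 3, 0.11 without BPA 2 and -0.04 without vehicle 1. Wnt8b was at -0.03 (SE 0.269) and Wnt5a at -0.08 (SE 0.145). Hem-derived Cajal-Retzius markers, which bear on the same tissue, summed to between 590 and 642 CPM in vehicle and between 652 and 750 CPM in BPA. Most of this sum was Reln, at 459 to 523 CPM in vehicle and 508 to 608 CPM in BPA, which had an unadjusted edgeR p of 0.179. Of the 8 markers, 6 had a higher and 2 a lower fitted level in BPA. Groups did not overlap for 2 of them, Trp73 and Ebf3, against 3.19% of all genes in that direction. Trp73 was at 25.2, 29.8 and 29.2 CPM in vehicle and 32.3, 30.4 and 40.6 CPM in BPA. Its unadjusted edgeR p was 0.0653. Of these 8 markers 0 passed the adjusted threshold, and 2, Ebf3 and Nhlh2, had an unadjusted edgeR p under 0.05, against 2.20% of all genes. The 5 markers of the medial pallium and dentate all had a higher fitted level in BPA, but their sums overlapped. These were 1400 to 1747 CPM in vehicle and 1510 to 1719 CPM in BPA. In that list, and in those of choroid plexus and dorsal pallium, 0 tested genes had groups that did not overlap. An unadjusted edgeR p under 0.05 was reached by 0 of them. The part of any of these markers in the hem values was not tested.

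**Figure D4:**
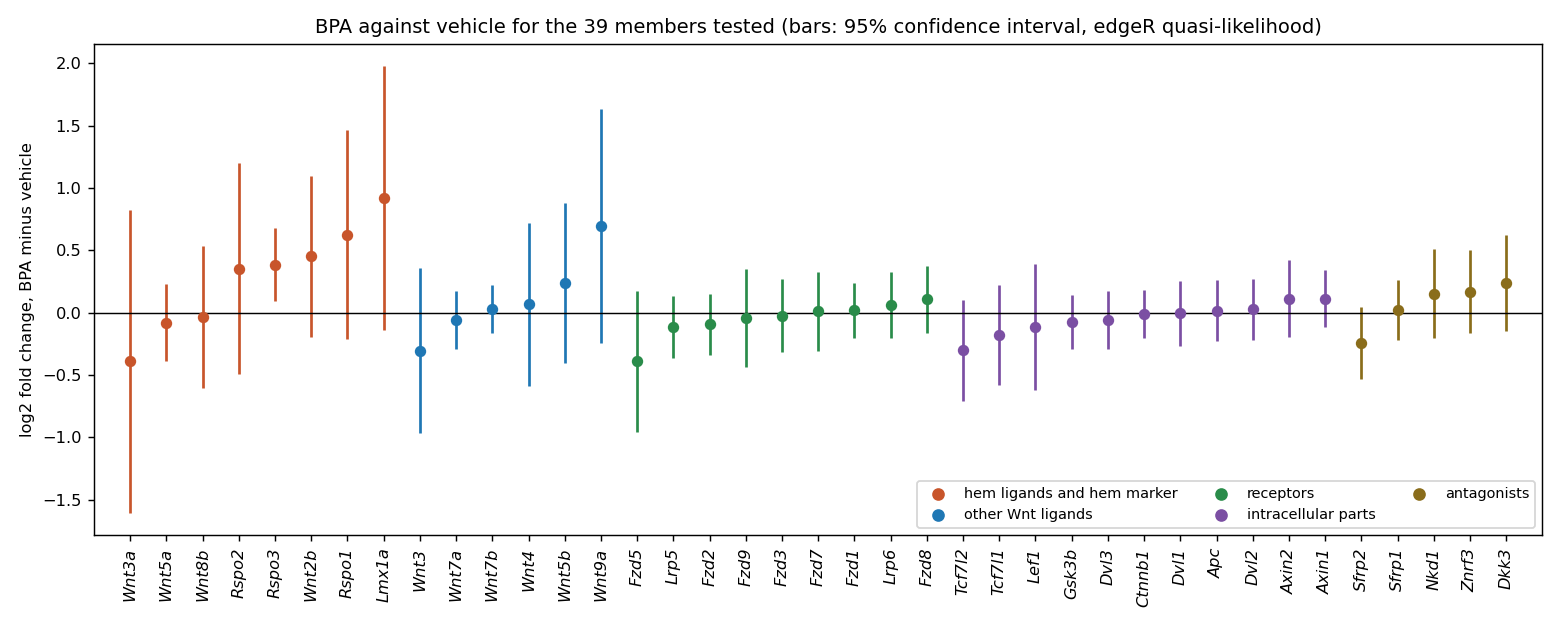
Log2 fold change of BPA against vehicle for the 39 genes tested, with 95% confidence intervals from edgeR's quasi-likelihood fit, colored by role. The interval of Rspo3, from 0.09 to 0.68, is the one that leaves out 0, and the intervals of the receptors and intracellular parts are narrower than those of most ligands.

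The abundant cortical ligands had narrow intervals around 0. Wnt7b, the main ligand of the developing cortex by level, was at 262, 293 and 292 CPM in vehicle and 296, 281 and 290 CPM in BPA, which is a log2 fold change of 0.03 with a 95% interval from -0.16 to 0.23. Wnt7a, which with Wnt7b also acts on growing brain vessels, was at 55.8 ± 2.68 CPM in vehicle and 53.6 ± 3.12 CPM in BPA (SD, n = 3 each), with a log2 fold change of -0.06. Its interval ran from -0.29 to 0.17. Wnt9a was at 0.70 (SE 0.443) on 4 to 16 counts a library, and at 0.29 without vehicle 1 and 1.11 without vehicle 3. Wnt3 was at -0.30, Wnt4 at 0.07 and Wnt5b at 0.24 on the log2 scale, each with an SE of 0.303 to 0.312.

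Among the 9 receptors tested, 4 were higher and 5 lower in fitted level, between -0.39 and 0.11 on the log2 scale. Fzd5 had the lowest value, at 7.80, 4.36 and 7.49 CPM in vehicle and 4.71, 5.20 and 4.96 CPM in BPA. The BPA libraries lay close together inside the vehicle range, and the log2 fold change was -0.39 (SE 0.266), or -0.62 without vehicle 2 and -0.22 without vehicle 1. The coreceptor Lrp6 was at 0.06 with a 95% interval from -0.20 to 0.33, and Lrp5 at -0.12 with an interval from -0.36 to 0.13. Fzd1, Fzd2, Fzd3, Fzd7, Fzd8 and Fzd9 were between -0.09 and 0.11.

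The intracellular parts were the most closely measured. Ctnnb1 was at 1143 ± 85.8 CPM in vehicle and 1133 ± 17.3 CPM in BPA (SD, n = 3 each), a log2 fold change of -0.01 with an interval from -0.21 to 0.18. The 3 Dishevelled genes, which carry the signal from the receptor, were between -0.06 and 0.03, and Apc and Gsk3b were at 0.02 and -0.07. Axin2, a feedback inhibitor that is itself a common target of beta-catenin signaling, was at 36.5, 52.2 and 36.9 CPM in vehicle and 49.0, 41.6 and 45.8 CPM in BPA. Vehicle 2, high in Ttr, stood above every BPA library and the other vehicle libraries below every one. The log2 fold change was 0.11 (SE 0.146) with all libraries and 0.31 without vehicle 2, with an edgeR p of 0.0306 before and 0.949 after adjustment. Of the DNA-binding factors, Tcf7l2 was at -0.30 (SE 0.190), Tcf7l1 at -0.18 (SE 0.189) and Lef1 at -0.11 (SE 0.238). Lef1 was at 0.24 without vehicle 2.

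Sfrp2, a secreted Wnt-binding protein on chromosome 3 from 83766321 to 83774316, was at 26.0, 27.0 and 29.2 CPM in vehicle and 25.3, 23.1 and 20.4 CPM in BPA. Every BPA library stood below every vehicle library, by a gap between 26.0 and 25.3 CPM at its narrowest. The log2 fold change was -0.24 (SE 0.136), and its edgeR p of 0.0954 did not pass before adjustment. The other antagonists were the Wnt-binding Sfrp1 at 0.02, the Dickkopf family member Dkk3 at 0.24, the ubiquitin ligase Znrf3, which clears Frizzled receptors, at 0.17 and the Dishevelled-binding feedback inhibitor Nkd1 at 0.15 on the log2 scale. Their intervals all included 0.

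Precision differed by level. The 95% interval lay within a 1.5-fold difference in either direction for 24 of the 39 genes, among them Ctnnb1, Wnt7a, Wnt7b and the Dishevelled genes, and within 2-fold for 33. The remaining 6 genes were Wnt2b, Wnt3a, Rspo1, Rspo2, Lmx1a and Wnt9a, all low or widely spread. A 2-fold difference lay inside the interval of each of these 6 genes at this depth.

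Further genes of the pathway were counted on a wider list. Of 78 listed genes, 54 passed the filter, of which 21 had a higher and 33 a lower fitted level in BPA, and the median log2 fold change was -0.03. An adjusted p of 0.1 was passed by 0 of them and an unadjusted edgeR p under 0.05 by 0, against 2.20% of all genes. The common targets Sp5 and Ccnd1 were at -0.18 (SE 0.427) and -0.14 (SE 0.140), and Wls, the carrier that brings Wnt proteins to the cell surface, was at 0.09 (SE 0.211). Dact1, a Dishevelled-binding regulator named after its values were seen, was the 1 gene of the 54 whose groups did not overlap, against 6.75% of all genes, with a log2 fold change of 0.12 (SE 0.101). Notum, which inactivates Wnt proteins, had 5, 3 and 2 counts in vehicle and 0, 1 and 1 in BPA, too few to test.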

How the data were processed

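The deposited values were whole-number counts of reads per gene in fetal mouse cortex, from 6 libraries in 2 groups of 3. According to the study's methods, strand-specific libraries gave single-end reads of 50 bases, which the authors aligned with TopHat2 (2.0.14 per the submitters' processing notes) to GRCm38 and counted on GENCODE genes with featureCounts. Strand and multimapping options are not given in the sources used here. Of the 40 genes, 20 share no 50-base word with another gene. The counts of the others, and of the 11 that overlap exons of another gene, can depend on those options. The labels and the methods give GD15.5, and the study's results text a later age. Replicates were numbered in accession order.

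Genes were kept by edgeR's filterByExpr (minimum count 10, minimum total 15), which left 13741 genes with 99.7% of counts. Counts were scaled by TMM and tested with edgeR 4.0.16 quasi-likelihood in R 4.3.3, without covariates, at a Benjamini-Hochberg adjusted p of 0.1. Standard errors were derived from the size of the log2 fold change and its quasi-likelihood statistic. The fit was also run on simulated counts, with the BCV of each gene set to the trend. The estimated BCV of Lmx1a, Rspo2 and Wnt3a was above the trend, so that run does not represent them. Levels are CPM, divided by the combined exon length of GENCODE M21 where genes are compared. Promoters came from RefSeq (GRCm38.p6). Alternatives were RLE, upper-quartile and library-size scaling, no filter, a filter of 10 CPM in 3 libraries, a Ttr covariate, edgeR's exact test, limma-voom (limma 3.58.1), DESeq2 1.42.0 and leaving out each library. The genes, lists and tests were chosen with earlier results of these data known. All 40 genes are named, with values by library for hem genes and for those with an unadjusted p under 0.05 or groups that did not overlap, and the other genes given by library were chosen after their values were seen.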

Additional observations from a re-analysis of the deposited data

How the results depend on the processing

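Across 16 alternatives, the number of genes of the set past an adjusted p of 0.1 remained 0, with 0.459 the smallest adjusted p of any of them, and so did that of the other Wnt pathway genes. The number at an unadjusted p under 0.05, 1 with all libraries, was 2 without the filter and 2 in limma-voom, with Lmx1a beside Rspo3 in each. Leaving out each library in turn gave 1 to 5, namely 5 without vehicle 2 (Axin2, Fzd5, Lmx1a, Rspo1 and Rspo3) and 3 without vehicle 3 (Rspo2, Rspo3 and Wnt9a). Without BPA 1 it was Dkk3 alone, and Rspo3 had an edgeR p of 0.0540. Without the 2 libraries highest in Ttr, a setting chosen after seeing the data, it was 4 (Axin2, Fzd5, Lmx1a and Rspo1), with 2 libraries per group, and Wnt3a did not pass the filter there. Over all genes, the number under 0.05 was 302 of 13741 with all libraries, 620 of 23501 without the filter and 287 of 13741 in limma-voom. It was 346 of 13925 without vehicle 1, 708 of 13886 without vehicle 2 and 194 of 14012 without vehicle 3. Leaving out BPA 1, BPA 2 or BPA 3 gave 194 of 13884, 563 of 14010 and 317 of 14037. Without the 2 libraries highest in Ttr it was 954 of 13643, so this number changed over the whole table as well. The cause was not tested. Of 612 recomputed log2 fold changes, 21 moved by at least 1 SE, 8 of them without vehicle 2, and 46 changed sign, of which 3 had a size over 0.2. Over all genes, calls at the adjusted threshold were 19 without the filter, 15 without the 2 libraries highest in Ttr, 3 in DESeq2, 2 in the exact test, 2 with the Ttr covariate, 1 without vehicle 3, 1 without BPA 2 and 0 in the others. No paired analysis was possible because the replicate numbers follow accession order and the sample numbers in the labels are not shared between groups. With 3 fetuses a group and 3444601 counts in the shallowest library, differences in hem genes of low count were limited by depth and by the spread between fetuses.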

Other observations

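Planar cell polarity is a branch of Wnt signaling that orients cells and acts without beta-catenin. Of its membrane components, chosen here after their values were seen, Vangl2, Celsr2 and Celsr1 averaged 51.5, 50.7 and 25.4 CPM per kilobase of exon and Vangl1 0.859. The log2 fold changes in BPA were 0.03 (SE 0.093) for Vangl2, 0.15 (SE 0.121) for Celsr2, 0.20 (SE 0.114) for Celsr1 and 0.04 (SE 0.239) for Vangl1, and 0 of them passed the unadjusted or adjusted threshold in edgeR's test. Celsr3, the family member known for guiding forebrain axons, was listed at 0 in all 6 libraries, as was Fzd6, another receptor gene. These were 2 of 7 other Wnt pathway genes listed at 0 throughout, and for Celsr3 a count of 0 stood beside 1023 to 2209 counts for Celsr1. The cause of these zeros was not tested.

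Apc2, a relative of Apc that is prominent in neurons, averaged 102 CPM per kilobase, compared with 42.9 for Apc. Among the carriers and processing enzymes of Wnt ligands, Porcn, which attaches the lipid that Wnt proteins need, was at 23.4 CPM per kilobase and Wls at 2.67.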
